A study of Mus musculus with 2 samples.

Results

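Mt1 and Mt2 encode metallothioneins 1 and 2, and they were taken as the rows of both deposited matrices that carry these symbols: 2 of 32285 genes. The pair was chosen by its levels at the 2 ages, which earlier results of the same data had shown to differ, so the levels by age below are a description and carry no test. Mt1 (ENSMUSG00000031765) lies at chr8:94179082-94180327 on the plus strand of mouse build GRCm38, and Mt2 (ENSMUSG00000031762) at chr8:94172664-94173568, 5513 bases before it. Both have 3 exons in the GENCODE vM21 annotation.

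Cells came from skeletal muscle tissue of forelimbs and hindlimbs of wild-type C57Bl/6 mouse embryos, in 1 single-cell library from embryos of day E12.5 and 1 from day E15.5. Both groups share the wild-type genotype, the strain and the dissociation, which was mechanical and with trypsin. How many embryos went into a library, and of which sex, is not given in the sources used here. With 1 library per age there is no replicate check, and every interval below is a 95% interval for counting error only.

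Metallothioneins are small, cysteine-rich proteins that bind zinc and copper and buffer their free levels. Their transcription is driven by the zinc-sensing factor MTF1 through metal response elements, and is raised by metals, glucocorticoids, inflammatory cytokines and oxidative stress. Mt1 and Mt2 are the widely expressed members of the family, while Mt3 is known from brain and Mt4 from stratified epithelium. Cell isolation itself can induce stress genes, metallothioneins included.

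The sequences before the annotated starts are shown because the pair moved together and because they can be searched for the element that MTF1 binds. Promoters of both genes matched by symbol in the RefSeq table for GRCm38.p6. Capitals mark the core of the metal response element, searched as TGCACNC and TGCGCNC on both strands. Each line gives the 250 bases before the start annotated by RefSeq, 5′ to 3′, from chr8:94178839-94179088 for Mt1 and chr8:94172368-94172617 for Mt2, plus strand.
Mt1: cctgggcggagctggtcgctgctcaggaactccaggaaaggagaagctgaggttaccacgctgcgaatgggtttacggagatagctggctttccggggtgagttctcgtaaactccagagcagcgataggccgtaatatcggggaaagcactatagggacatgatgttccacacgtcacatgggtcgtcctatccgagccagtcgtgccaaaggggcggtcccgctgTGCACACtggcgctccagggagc
Mt2: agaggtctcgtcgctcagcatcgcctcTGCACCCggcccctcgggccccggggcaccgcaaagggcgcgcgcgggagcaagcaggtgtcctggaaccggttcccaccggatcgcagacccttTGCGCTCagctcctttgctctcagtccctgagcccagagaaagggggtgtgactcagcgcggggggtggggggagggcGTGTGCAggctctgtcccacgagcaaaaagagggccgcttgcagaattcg
Mt1 held 1 match and Mt2 held 3, none overlapping another, of which the last in Mt2 is on the minus strand. Of 32851 windows of the same length, 10.4% held TGCACNC, 4109 windows held TGCGCNC, 21.4% held at least 1 match of either form and 1.26% held at least 3. The start of each gene's most upstream GENCODE transcript lay before a TATA box on the transcript's strand: TATAAA began at base 129 of the Mt1 transcript and base 90 of the Mt2 transcript, and 2.33% of 21833 protein-coding genes had it in the first 150 bases of their most upstream transcript. The 30 bases that end with this TATA box are printed because both begin at or next to a metal response core, also in capitals, from GRCm38 chr8:94179186-94179215 for Mt1 and chr8:94172729-94172758 for Mt2.
Mt1: tTGCGCCCggactcgtccaacgacTATAAA
Mt2: TGCGCTCgacccaatactctccgcTATAAA
In the first 150 bases of the transcript Mt1 had 4 metal response cores, and 0.055% of genes had as many. Mt2 had 3, and 0.495% of genes had as many. The 30-base stretches lie after the end of the 250-base window of each gene, so their cores are not among the matches counted in those windows. A match describes letters in a window and is no evidence of binding.

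The younger library comprised 12941 barcodes and 34907675 UMIs (unique molecular identifiers, each marking a captured RNA molecule), and the older one 5780 barcodes and 46966083 UMIs. After filtering and removal of likely doublets, 11001 cells with a median of 2318 UMIs and 3916 cells with a median of 9297 UMIs were kept. The libraries shared 17 barcodes. No deposited cell annotation was used here, so classes were rebuilt from the counts and are named by their markers ("muscle-like"). Levels are UMIs summed over the cells of a class and given as CPM, counts scaled to a common total of all UMIs in that class. All 13 muscle markers were detected in the muscle-like class at both ages, with a summed level of 3910.1 CPM at E12.5 and 2129 CPM at E15.5. All 12 connective tissue markers were detected in the connective tissue-like class. Chondrocyte markers in that class summed to 2048 CPM at E12.5 and 118 CPM at E15.5, so the makeup of the class differed between the ages.

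Over all kept cells Mt1 stood at 9.50 CPM (8.40 to 10.7, 268 UMIs) at E12.5 and 116 CPM (113 to 119, 4724 UMIs) at E15.5. Mt2 stood at 3.62 CPM (102 UMIs) and 22.9 CPM (934 UMIs). Both genes were therefore higher in the older library, Mt1 by 12.2-fold and Mt2 by 6.34-fold. The libraries differ in makeup: mast-like and mural-like cells, with 727 and 433 of the 4724 Mt1 UMIs, were named only at E15.5. This pooled difference thus mixes levels with cell proportions. The difference was not shared by every class: of the 8 classes named at both ages, connective tissue-like cells had the highest estimate for Mt1, muscle-like, chondrocyte-like and immune-like cells had smaller ones, and endothelial-like cells showed none beyond counting error. In globin-rich barcodes the direction of Mt1 depended on the scaling and on 1 barcode, since without the highest barcode Mt1 was lower at E15.5 on both scales.

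**Figure D1:**
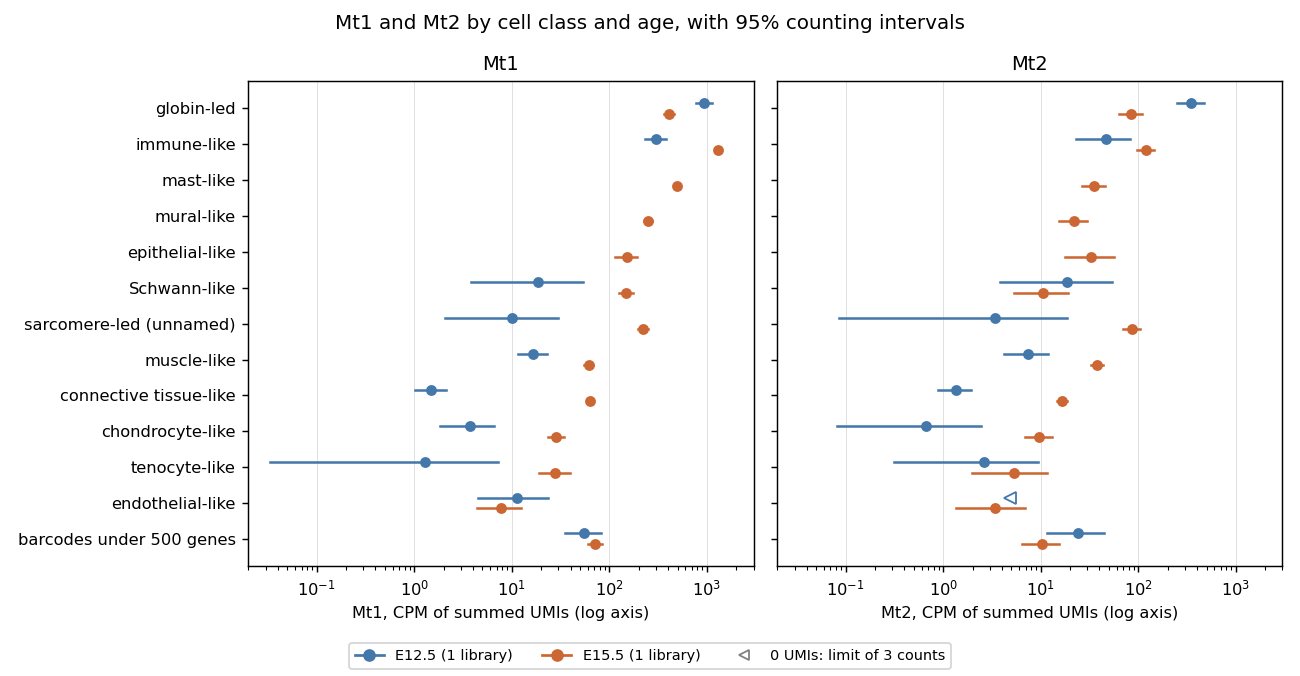
Mt1 (left) and Mt2 (right) in CPM of summed UMIs on a log axis, by cell class, in the E12.5 library (blue) and the E15.5 library (orange), with 95% Poisson intervals; the open triangle is the limit that 0 UMIs allow. In connective tissue-like cells Mt1 lay at 1.49 CPM at E12.5 and 63.4 CPM at E15.5, while the endothelial-like intervals overlap.

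Connective tissue-like cells, the fibroblast and mesenchymal cells of the limb, went from 1.49 CPM of Mt1 (1.01 to 2.11; 31 UMIs in 8643 cells) to 63.4 CPM (59.7 to 67.2; 1121 UMIs in 1677 cells). The log2 ratio was 5.41 (4.90 to 5.98), and Mt1 ranked 37 from the top of 15329 genes with at least 20 UMIs in the class. Of these genes 10.3% were at least 2-fold higher at E15.5, and the median gene had a log2 ratio of -0.37. Mt2 went from 1.34 CPM (28 UMIs) to 16.4 CPM (290 UMIs), with a log2 ratio of 3.61 (3.05 to 4.23), and ranked 164. The 31 Mt1 UMIs at E12.5 lay in 31 different cells, 1 in each, so the earlier level rests on single molecules. At E15.5, by contrast, the highest cell held 30 UMIs, and without the highest cell of each library the log2 ratio was 5.42.

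The difference in connective tissue-like cells was also seen between cells of the same depth. Among cells of 2000 to 5000 UMIs Mt1 stood at 1.31 CPM (19 UMIs) in the younger library and 41.6 CPM (13 UMIs) in the older, and among cells of 5000 to 10000 UMIs at 1.59 CPM (2 UMIs) and 47.9 CPM (289 UMIs). Cells of 10000 UMIs or more at E15.5 stood higher, at 72.4 CPM. The difference was also seen in cells with and without a UMI of Top2a or Mki67, genes of dividing cells. These were called after thinning each cell to 2000 UMIs, and cells below that depth were left out. Cells with such a UMI went from 1.60 to 65.9 CPM, and cells without went from 0.946 to 62.2 CPM. Lack of such a UMI at that depth does not show that a cell was not cycling. Cells were also called male by UMIs of Y-linked genes without Xist, and female by Xist without Y-linked genes. Male cells went from 1.79 to 63.3 CPM and female cells from 1.79 to 60.5 CPM. The intervals of the 2 ages did not overlap in these splits, except among cells of 500 to 2000 UMIs, which had 1.95 CPM (0.937 to 3.59) at E12.5 and 1 UMI in 33 cells at E15.5 (0.534 to 118 CPM).

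Within the connective tissue-like class the level differed widely between clusters at E15.5. At E12.5 the 15 clusters of the class lay between 0 and 6.32 CPM of Mt1, with a median of 1.49. At E15.5 the 8 clusters lay between 0 and 311 CPM, with a median of 39.9. The highest was a cluster of 44 cells led by Stmn2, Twist2 and Irx5, at 311 CPM (269 to 359), next to a cluster of 105 cells led by Twist2, Cxcl14 and Thy1, at 283 CPM (252 to 317). Twist2 encodes a transcription factor of dermal and other mesenchymal precursors. A cluster of 139 cells led by Dpt, Igfbp6 and Ly6a, genes of fascia-type fibroblasts, stood at 83.1 CPM. The cluster led by the mitotic genes Hmmr and Nusap1 stood at 26.4 CPM, and a shallow cluster of 83 cells led by the noncoding RNA Gm26917 held no Mt1 UMI, where the limit for 0 counts was 10.7 CPM. Mt2 was also highest in the 2 clusters with Twist2 among their leading genes, at 33.1 and 47.2 CPM against a median of 19.0. Their order was reversed, with overlapping intervals. Below them Mt2 did not follow Mt1: the Dpt-led cluster stood at 20.8 CPM of Mt2. A cluster led by Aldh1a3, with 42.5 CPM of Mt1, stood at 21.5 CPM of Mt2.

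**Figure D2:**
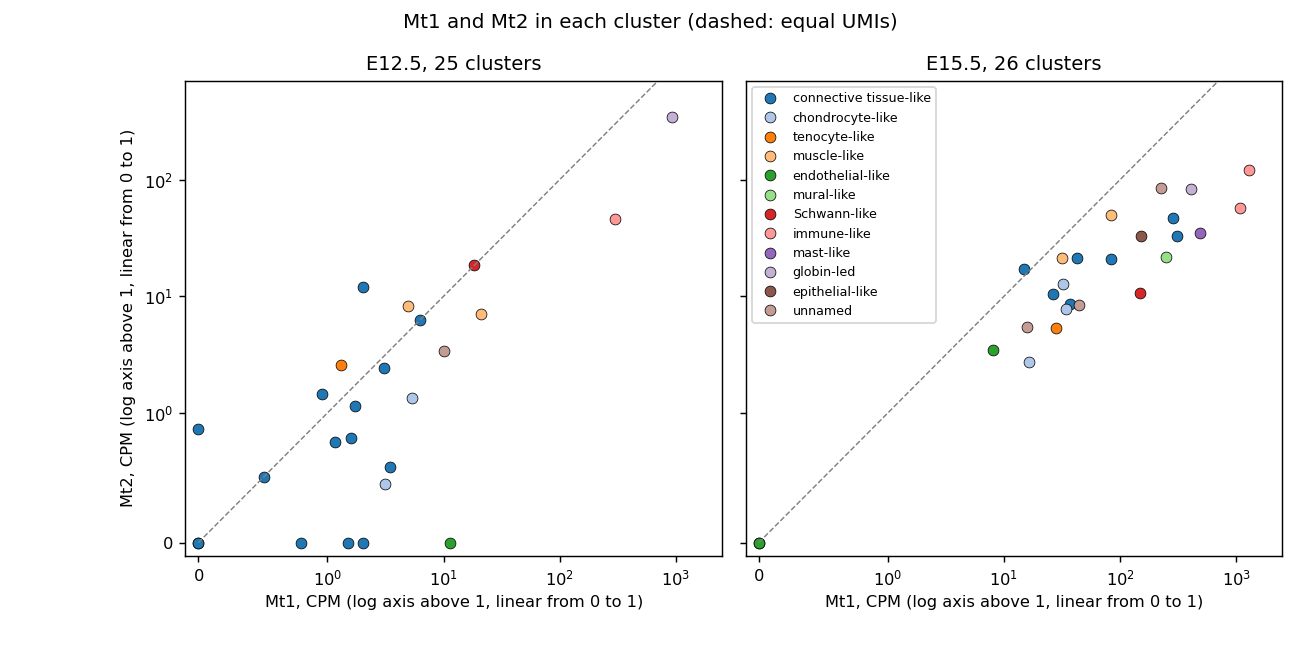
Mt1 (x axis) against Mt2 (y axis) in CPM for each cluster of the E12.5 library (left) and the E15.5 library (right), coloured by cell class; axes are logarithmic above 1 CPM and linear from 0 to 1, and the dashed line marks equal UMIs. The connective tissue-like clusters reach 6.32 CPM of Mt1 at E12.5 and 311 CPM at E15.5.

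The shares of cells with a UMI gave the same order of ages. Each cell was thinned to 2000 UMIs, and 3415 younger and 33 older cells below that depth were left out. Of the rest, 0.268% (0.146 to 0.449) of connective tissue-like cells had an Mt1 UMI at E12.5, against 7.73% (6.48 to 9.12) at E15.5. Without thinning these shares were 0.359% and 19.7%. For Mt2 the thinned shares were 0.191% and 3.28%. No class is known to lack metallothioneins, so the lowest class at E15.5 serves as the comparison: 0.763% (0.0193 to 4.18) of 131 thinned endothelial-like cells had an Mt1 UMI, 7.89% without thinning. Their median depth was 10800 UMIs, against 9797 in connective tissue-like cells. The interval of connective tissue-like cells at E15.5 lay above that of endothelial-like cells. In the E12.5 library 3.42% (4 of 117) of thinned endothelial-like cells and 0 of 134 tenocyte-like cells had an Mt1 UMI, and no class there gives a background for the 0.268% in connective tissue-like cells.

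**Figure D3:**
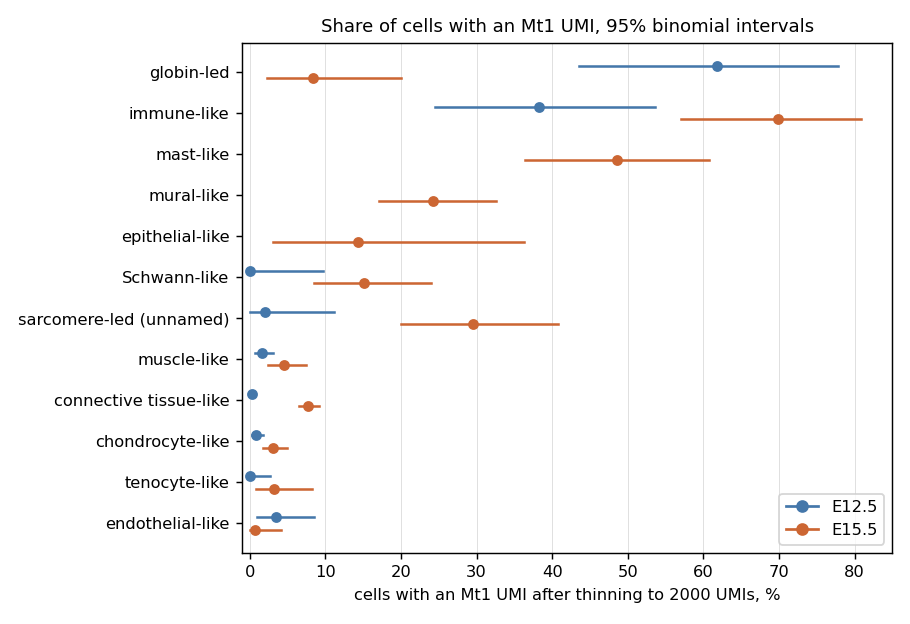
Share of cells with at least 1 Mt1 UMI, in percent, after thinning every cell to 2000 UMIs, by cell class at E12.5 (blue) and E15.5 (orange), with 95% binomial intervals. The share is 0.268% and 7.73% in connective tissue-like cells, and 61.8% and 8.33% in the globin-led clusters.

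Expression at E15.5 was uneven from cell to cell. Of 1677 connective tissue-like cells 40 held 50% of all Mt1 UMIs. In 104 cells with at least 3 Mt1 UMIs, which had a median depth of 11979 UMIs, Mt2 stood at 90.6 CPM, and in 1347 cells without any, with a median depth of 9471 UMIs, it stood at 7.58 CPM. Both genes were found in the same cells after thinning: 11.8% of 127 cells with an Mt1 UMI also had Mt2, against 2.57% of 1517 cells without Mt1. Globin transcripts were also higher in the cells with more Mt1: Hbb-bs, an adult beta globin, stood at 977 CPM in them and 73.2 CPM in the others, but the median globin share was 0.00903% against 0.0120% and 1 cell had 5% globins or more. Leaving out cells with at least 5% globins or at least 3 immune marker UMIs gave a log2 ratio of 5.40.

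Muscle-like cells, named by markers such as Pax7, Myod1 and Myog, went from 16.6 CPM of Mt1 (11.6 to 23.0; 36 UMIs in 546 cells) to 61.3 CPM (54.5 to 68.6; 301 UMIs in 312 cells). The log2 ratio was 1.88 (1.38 to 2.42). Of 10746 genes tested in the class 4.85% were at least 2-fold higher, and Mt1 ranked 165. Mt2 went from 7.38 CPM (16 UMIs) to 37.7 CPM (185 UMIs), with a log2 ratio of 2.35 (1.61 to 3.19) and rank 100. At E15.5 the intervals of muscle-like and connective tissue-like cells overlapped for Mt1, while Mt2 was higher in muscle-like cells.

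A single cell at each age carried most of the Mt1 UMIs of the muscle-like class. At E15.5 it held 168 of 301 Mt1 UMIs and 70 of 185 Mt2 UMIs, in a total of 61996 UMIs. At E12.5 it held 23 of 36 Mt1 UMIs, in a total of 8204. Neither cell looked like its neighbours: each had 2 UMIs of muscle markers, against a median of 21.0 in the other cells at E15.5 and 8 at E12.5. They held 33 and 6 UMIs of Hemgn, a nuclear protein of blood precursors, which was at 0 in the other 311 and 545 muscle-like cells. They also held 66 and 14 UMIs of the carbonic anhydrase Car2, against 44 and 13 in all other cells together. These genes were looked at after the cells had stood out.

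Without the highest cell in each library, Mt1 in muscle-like cells went from 6.02 CPM (13 UMIs) to 27.4 CPM (133 UMIs), a log2 ratio of 2.19 (1.36 to 3.13). Mt2 went from 4.17 to 23.7 CPM, a log2 ratio of 2.51. The levels thus fell by more than 1.5 times without these cells, while the ratio between ages stayed inside its interval. At E15.5 Mt1 was then lower in muscle-like than in connective tissue-like cells, which stood at 61.7 CPM without their highest cell. After thinning, 1.60% of 500 cells at E12.5 and 4.49% (2.47 to 7.41) of 312 cells at E15.5 had an Mt1 UMI, against 2.01% and 20.8% unthinned. The interval at E12.5 ran from 0.693% to 3.13% and so overlapped that at E15.5. Few muscle-like cells of the libraries had the same depth: those of 5000 to 10000 UMIs held 25 Mt1 UMIs in 123 cells at E12.5, 23 of them from the highest cell, and 4 in 45 cells at E15.5. These counts are too few to show a difference. With every muscle-like cell thinned to 2000 UMIs, the highest ones included, the log2 ratio was 1.39 (0.23 to 2.62) for Mt1 and 2.27 (0.98 to 3.74) for Mt2. Thinned to 1000 UMIs it was 1.67 (0.11 to 3.39) for Mt1 and 1.16 (-0.43 to 2.82) for Mt2. The 2 muscle-like clusters at E15.5 stood at 31.8 and 84.0 CPM, and at 29.1 and 24.0 CPM without their highest cells. The sex split of muscle-like cells turned on the same 2 cells: female cells went from 29.7 to 28.3 CPM and male cells from 5.66 to 229 CPM, while without the highest cell female cells went from 7 to 25.7 CPM and male cells from 3.84 to 28.7 CPM.

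A cluster led by sarcomere genes (Mylpf, Myl1, Acta1 and Myh3, the contractile genes of differentiated fibres) did not meet the naming rule at either age. It stood at 10.1 CPM of Mt1 in the younger library, where all 3 UMIs came from 1 of 49 cells, and at 223 CPM (198 to 250.3; 288 UMIs in 86 cells) at E15.5. Mt2 stood at 3.37 CPM (1 UMI) and 85.2 CPM (110 UMIs). At E15.5 its level of Mt1 was above that of both muscle-like clusters, and 29.6% of 81 thinned cells had an Mt1 UMI. No 1 cell decided this, since Mt1 stood at 201 CPM without the highest cell. Joined with this cluster, the muscle-like class had a log2 ratio of 2.58. Of the other 2 unnamed clusters at E15.5, the 380 cells led by Nefm and Tac1 stood at 15.9 CPM of Mt1, and the 221 shallow cells led by Stfa1 and S100a8, genes of neutrophils, at 44.5 CPM.

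Cells of cartilage and tendon also had more Mt1 at E15.5, against few UMIs at E12.5. Chondrocyte-like cells went from 3.71 CPM of Mt1 (11 UMIs) to 28.3 CPM (115 UMIs), a log2 ratio of 2.93 (2.04 to 3.97), where 10.4% of 11941 genes were at least 2-fold higher. Their Mt2 went from 0.674 CPM, or 2 UMIs, to 9.58 CPM, or 39 UMIs. Tenocyte-like cells had 1 Mt1 UMI (1.30 CPM) in the younger library and 31 (27.8 CPM) in the older, a 21.3-fold ratio, and the counting interval of the ratio ran from 3.56-fold to 870.1-fold. In that class 8.20% of 8551 genes were at least 2-fold higher. Chondrocyte-like and tenocyte-like cells had overlapping intervals at both ages.

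Immune-like cells, led by macrophage genes such as C1qb, Pf4 and Mrc1, had the highest Mt1 level of the 11 named classes at E15.5. They went from 299 CPM (233 to 377; 71 UMIs in 48 cells) to 1284 CPM (1210.2 to 1361; 1127 UMIs in 84 cells), a log2 ratio of 2.10 (1.76 to 2.47), where 10.1% of 6553 genes were at least 2-fold higher. The thinned share of cells with an Mt1 UMI went from 38.3% to 69.8%. Mt2 went from 46.3 to 119.6 CPM, a log2 ratio of 1.37 (0.47 to 2.42). In the older library, however, 2 of the 84 cells held 37 and 27 of the 105 Mt2 UMIs. Leaving out the highest cell of each library gave a log2 ratio of 1.20 (0.14 to 2.47) for Mt2. Thinned shares of cells with an Mt2 UMI, 8.51% in the younger library and 11.1% in the older, had overlapping intervals. The 2 immune-like clusters at E15.5 stood at 1292 and 1084 CPM, with overlapping intervals.

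The other classes filled the range between. Schwann-like cells went from 18.4 CPM of Mt1, or 3 UMIs, to 149 CPM, or 155 UMIs, where 13.4% of 7250 genes were at least 2-fold higher. Their Mt2, however, stood at 18.4 CPM (3 UMIs) and 10.6 CPM (11 UMIs) with overlapping intervals. Leading genes of this class included the epithelial markers Krt5 and Krt15 at E12.5, and the melanocyte markers Dct and Pmel at E15.5. Its makeup may thus differ between the ages. Mast-like, mural-like and epithelial-like cells were named only at E15.5, with 727, 433 and 59 UMIs of Mt1. These gave 491 CPM in mast-like cells, 249 CPM in mural-like cells and an interval of 114 to 194 CPM in epithelial-like cells, and their Mt2 stood at 35.1, 21.8 and 33.1 CPM. At that age the order of Mt1 ran from immune-like through mast-like, globin-led, mural-like, epithelial-like, Schwann-like, connective tissue-like, muscle-like, chondrocyte-like and tenocyte-like to endothelial-like. The place of the globin-led cells rests on 1 cell, without which they stood at 52.0 CPM. Neighbours with overlapping intervals were mast-like and globin-led, epithelial-like and Schwann-like, connective tissue-like and muscle-like, and chondrocyte-like and tenocyte-like.

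Endothelial-like cells, marked by Cdh5 and Pecam1, had no more Mt1 at E15.5 than at E12.5 within counting error. They stood at 11.3 CPM (7 UMIs in 131 cells) and 7.72 CPM (16 UMIs in 152 cells), which gives a log2 ratio of -0.55 (-1.91 to 0.97). Of 8960 genes in the class 7.08% were at least 2-fold higher and 12.4% at least 2-fold lower. The upper bound of 1.96-fold lies under the lower bound of 29.9-fold in connective tissue-like cells. Mt2 had 0 UMIs at E12.5, which allows up to 4.84 CPM, and 7 UMIs (3.38 CPM) at E15.5, so no ratio is given.

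Globin-rich barcodes, red cells and their precursors, had less Mt2 at E15.5. Their Mt1 was lower per total UMI, and per UMI other than globins only when the highest barcode was left out. The globin-led cluster stood at 934 CPM of Mt1 (764 to 1130.2; 105 UMIs in 40 cells) at E12.5, the highest class at that age. At E15.5 the cluster of that name stood at 408 CPM, of which 1 cell gave 252 of 288 UMIs, and at 52.0 CPM without it. The label does not hold well there: only 17 of its 48 cells had at least 5% globins, and Tnmd and Scx, genes of tendon, were among its leading genes. In that class 49.6% of 4751 genes were at least 2-fold higher at E15.5 and 5.73% at least 2-fold lower. All barcodes with at least 10% globins, whatever their gene number, give a population chosen the same way at both ages: 445 CPM (371 to 529; 108 barcodes) at E12.5 and 224 CPM (201 to 249; 275 barcodes) at E15.5, or 404 and 65.5 CPM without the highest barcode. Their Mt2 stood at 194 and 42.3 CPM. Globins took 47.1% of the UMIs of these barcodes at E12.5 and 77.1% at E15.5. Scaled to UMIs other than globins, Mt1 stood at 839.8 and 979 CPM, a log2 ratio of 0.22 (-0.07 to 0.52), and without the highest barcode at 764 and 289.8 CPM, a log2 ratio of -1.40 with an interval below 0. On that scale 1 barcode therefore decided the direction of Mt1. Mt2 on that scale stood at 367 and 185 CPM, a log2 ratio of -0.99 (-1.53 to -0.45).

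Barcodes with under 500 detected genes, left out of the cells above, serve as a check for free RNA. They held 55.0 CPM of Mt1 (34.9 to 82.6; 23 UMIs in 604 barcodes) at E12.5 and 71.6 CPM (60.7 to 83.9; 154 UMIs in 1376 barcodes) at E15.5, which gives 0.38 as log2 ratio (-0.26 to 1.08). Mt2 went from 23.9 to 10.2 CPM. Barcodes with at least 10% globins went from 171 to 61.4 CPM of Mt1 and, scaled to UMIs other than globins, from 486 to 438 CPM (log2 ratio -0.15; -0.96 to 0.75), since globins took 64.8% and 86.0% of their UMIs. Barcodes with fewer globins went from 24.2 CPM (8 UMIs) to 87.4 CPM (74 UMIs), a log2 ratio of 1.85 (0.80 to 3.12), so Mt1 was higher at E15.5 there too. Without those that held an immune marker UMI, they went from 19.1 CPM (6 UMIs) to 34.3 CPM (26 UMIs), with overlapping intervals. The barcodes under 500 genes thus differed in globin and immune marker content, and the level of empty droplets was not measured.

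Globins and immune markers served as tracers of free RNA from globin-rich barcodes and immune-like cells. Other sources, such as mast-like and mural-like cells, were not traced. In globin-rich barcodes Mt1 gave 0.944 UMIs per 1000 globin UMIs in the younger library, against 0.291 in the older. With the globin level found in connective tissue-like cells, this amounts to 0.231 and 0.0798 CPM of Mt1. With the immune markers in the place of globins, it amounts to 0.319 and 0.630 CPM. These sums are small beside the measured 63.4 CPM at E15.5, and a larger part of the 1.49 CPM measured at E12.5. They are also small beside the 34.3 CPM at E15.5 in barcodes under 500 genes with few globins and no immune marker UMI. At E15.5 chondrocyte-like cells (28.3 CPM), tenocyte-like cells (27.8 CPM) and muscle-like cells without their highest cell (27.4 CPM) were no higher than those barcodes. The check therefore does not set the levels of these 3 classes apart from such barcodes. The source of Mt1 in those barcodes was not tested. In endothelial-like cells the same sums were 1.49 and 2.08 CPM of 11.3 at E12.5, and 0.375 and 2.15 CPM of 7.72 at E15.5.

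The proportion of Mt1 to Mt2 UMIs differed between classes at E15.5. Counts come from transcript ends, so the ratio serves to compare classes and not the abundance of the genes. It was 1.63 (1.35 to 1.96) in muscle-like cells, 3.87 (3.39 to 4.41) in connective tissue-like cells, 10.7 (8.78 to 13.2) in immune-like cells and 11.4 (8.17 to 16.3) in mural-like cells. Muscle-like cells without their highest cell had a ratio of 1.16, from 133 Mt1 and 115 Mt2 UMIs. At E12.5 it was 1.11 (0.643 to 1.92) in connective tissue-like cells and 6.45 (3.40 to 13.5) in immune-like cells. Without the highest cell of each class at E15.5 it was 3.76 in connective tissue-like, 14.3 in immune-like and 9.95 in mural-like cells. In connective tissue-like cells the ratio was thus higher at E15.5 than at E12.5, with intervals that did not overlap. At E12.5, however, a cluster of 482 cells led by Dcn, Kera and Grem1 held 12 of the 28 Mt2 UMIs of the class. It held 2 of the 31 Mt1 UMIs. The lower ratio at E12.5 thus rests in part on that cluster, and the ratio without it was not computed. Mt1 and Mt2 are close paralogues, and how reads that fit both were assigned is not given in the sources used here.

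The other metallothioneins and the neighbouring genes give the context on the chromosome. Mt3 had 1 UMI (0.0479 CPM) at E12.5 in connective tissue-like cells and stood at 5.71 CPM at E15.5, a log2 ratio of 6.90 with a counting interval of 4.39 to 12.21. In muscle-like cells it had 1 and 19 UMIs (3.07; 0.41 to 8.44), while Mt4 had 0 UMIs at both ages in connective tissue-like cells. The cluster is flanked by Nudt21, Ogfod1 and Bbs2 on one side and Nup93, Slc12a3 and Herpud1 on the other. In connective tissue-like cells 5 of these 6 were tested, none was at least 2-fold higher, and 2 were at least 2-fold lower: Ogfod1 at -1.12 and Nup93 at -1.17 in log2. In that class 24.4% of all genes tested were at least 2-fold lower, so a count of 2 does not set the neighbours apart.

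Genes that handle zinc, copper and iron were compared in connective tissue-like cells, where 10.3% of all genes tested were at least 2-fold higher and 24.4% at least 2-fold lower. There 0 of 19 tested members of the zinc list were at least 2-fold higher at E15.5 and 2 were lower, Slc39a10 (log2 ratio -1.55) and Slc39a2 (-4.08), both zinc importers. Mtf1, named for its role and not by the rule for genes, stood at 18.4 CPM at E12.5 and 18.3 CPM at E15.5. In the copper list 3 of 12 members were higher: the metalloreductases Steap4 (3.79) and Steap3 (1.70) and the copper transporter Slc31a2 (2.07). In the same list 2 members were lower: the copper pump Atp7b, from 40 UMIs to 1, and Atp7a, from 72.4 to 29.8 CPM (-1.28). Atp7a is named to complete the count and not by the rule for genes. The iron list had 2 of 8 members higher, the ferritin heavy chain Fth1 (1.49) and the iron exporter Slc40a1 (2.16), and 2 lower, the transferrin receptor Tfrc (-1.93) and Ireb2 (-1.25), a regulator of iron transcripts. The list of NRF2 and glutathione genes had 2 of 17 members higher and 2 lower, with a median log2 ratio of 0.50 against -0.37 over all genes.

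Lists of pathways known to raise metallothioneins were read against the same shares of all genes, 10.3% higher and 24.4% lower. Of the glucocorticoid list 4 of 14 members were at least 2-fold higher in connective tissue-like cells, among them the transcription factor gene Cebpd (log2 ratio 3.32), the glucocorticoid receptor Nr3c1 (24.0 to 87.3 CPM) and Sult1a1 (3.34), while the cortisol-inactivating enzyme gene Hsd11b2 was lower (-2.12). The chaperone gene Fkbp5, a common target of the receptor, had a log2 ratio of -0.52. Of the STAT3 and acute phase list 4 of 9 were higher and 0 lower: Cebpb (3.33), Bcl3 (2.04), the feedback inhibitor Socs3 (1.83) and the oncostatin M receptor Osmr (1.15). The hypoxia list had 3 of 11 higher and 1 lower.

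Genes of early stress and cell isolation were the list with the highest count. Of its 22 members 18 were, in connective tissue-like cells, at least 2-fold higher at E15.5 and 0 lower, with a median log2 ratio of 1.60 against -0.37 over all genes. Klf2 stood at 44.8 and 539 CPM, the stress factor Atf3 at 25.0 and 172 CPM, and the small heat shock gene Hspb1 at 2.92 and 20.6 CPM. The abundant chaperone genes Hspa8 (-0.24) and Hsp90aa1 (-0.42) were not higher. The same list had 9 of 20 members higher in muscle-like cells (4.85% of all genes), 12 of 19 in immune-like cells (10.1%), 17 of 20 in chondrocyte-like cells (10.4%), 13 of 19 in Schwann-like cells (13.4%) and 10 of 19 in tenocyte-like cells (8.20%). In endothelial-like cells, where Mt1 was not higher, it had 9 of 20 (7.08%). Within connective tissue-like cells at E15.5, its summed level was 11084 CPM in cells with at least 3 Mt1 UMIs and 8711 CPM in cells with none. Other lists differed between these cells too: the glucocorticoid list stood at 748 and 435 CPM, and the STAT3 list at 483 and 386 CPM. The copper, iron, NRF2 and hypoxia lists were also higher in cells with Mt1, while the zinc list was lower, at 418 and 481 CPM. The part of cell isolation in the levels of Mt1 and Mt2 was not tested.

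**Figure D4:**
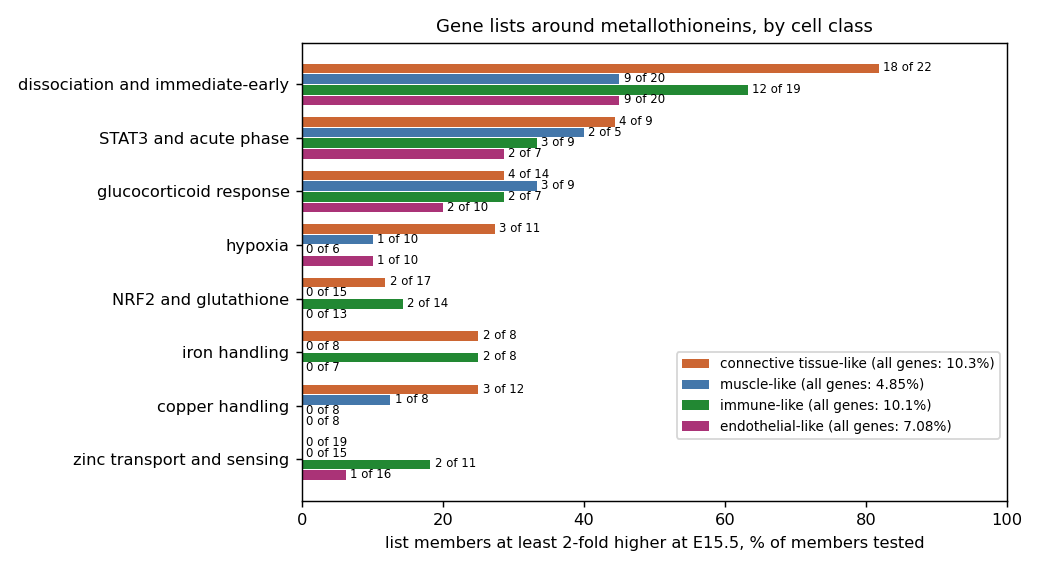
Members of each gene list that were at least 2-fold higher at E15.5, in percent of the members tested, in 4 cell classes (colours), with the counts beside the bars and the share over all genes of the class in the legend. The early stress list reaches 18 of 22 members in connective tissue-like cells, while 0 of 19 zinc genes do.

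Markers of other sources were checked beside these results. Liver cells make much metallothionein, but hepatocyte markers summed to 3.26 CPM over all kept cells at E12.5 (4 of 8 detected) and 1.84 CPM at E15.5 (5 of 8), with Serpina1a and Fgb at 0 at both ages. Immune markers in connective tissue-like cells summed to 9.68 and 8.76 CPM and red cell markers to 250.2 and 275 CPM, with all 12 and all 10 markers detected at both ages. The 5 adipocyte markers in these cells went from 1.20 to 23.6 CPM, and their part in the result was not tested.

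The genes with the most similar pattern were found by Pearson correlation of log2 levels, with 10 CPM added, with the summed level of Mt1 and Mt2. Over the 19 class levels of both libraries these were Blvrb (0.89), which encodes biliverdin reductase B, Fth1 (0.85), Sord (0.81), the sorbitol dehydrogenase gene, and Gpx1 (0.81), a glutathione peroxidase gene. Over 24 clusters of the E15.5 library they were Bckdk (0.76), a kinase gene of branched-chain amino acid metabolism, Blvrb (0.75) and Fth1 (0.73). Mt1 and Mt2 themselves correlated at 0.89 and 0.87. The points share 2 libraries, and the globin-rich and immune-like points lie far above the rest, so these values describe the pattern and carry no test.

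**Figure D5:**
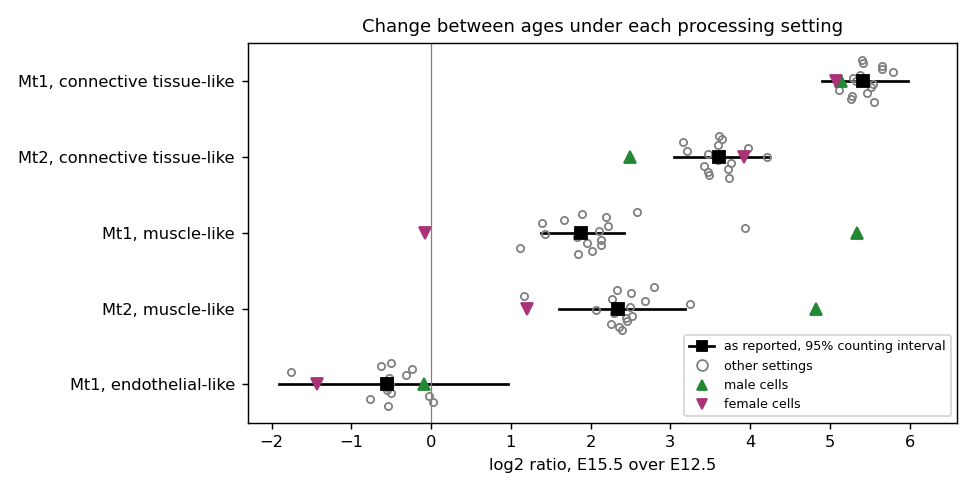
Log2 ratio (E15.5 over E12.5) of Mt1 and Mt2 in 3 classes as reported (black squares, with 95% counting intervals), under the other processing settings (grey circles), and in cells called male (green) or female (purple). Mt1 in connective tissue-like cells lies between 5.08 and 5.79, whereas in muscle-like cells it runs from -0.07 to 5.34.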

How the data were processed

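The authors deposited raw UMI counts per gene and barcode, per the file headers, with Cell Ranger 4.0.0, Seurat 4.3.0 and mm10 named in the submitters' processing notes. How barcodes were called as cells and how reads fitting 2 genes were counted is not given in the sources used here. Mt1, Mt2 and the gene lists were chosen with earlier results of these data known.

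Cells with at least 500 genes and under 10% mitochondrial UMIs were kept, and 1270 and 190 barcodes were removed as doublets by scores against simulated ones. Each library was clustered (2000 variable genes, 30 components, 15 neighbours, Leiden resolution 1.0) without the genes described here. Naming a cluster took at least 3 markers of a class that were 2-fold higher and found in 10% of its cells. A marker of that class also had to be among its 10 leading genes. Clusters that failed this could still enter the connective tissue-like class by a looser rule, which set them against the other classes only. That class thus holds clusters led by other genes, such as Gm26917. UMIs were summed per class. Intervals are exact Poisson, conditional or Clopper-Pearson at 95%, and they cover counting error only. A gene called tested had at least 20 UMIs over both ages and was held against the 2-fold limit, with no p-value. The limit for 0 is 3 counts. From each list the text names up to 4 genes by level and up to 4 by ratio in connective tissue-like cells, and by likeness the leading genes. Neighbours are the 3 protein-coding genes on each side. On simulated counts for connective tissue-like cells (15112 genes), 95.5% of unchanged genes had their true ratio inside the interval. For genes with a set log2 change of 3 it was 92.9%. The simulated sums were Poisson, as the interval assumes, so this checks the computation only. It cannot show how the interval fares with UMIs that lie in few cells. Of the alternatives, 15 were planned and 6 were chosen after seeing the data. Python 3.11.15 was used with matplotlib 3.10.9, leidenalg 0.10.2, igraph 0.11.9, scikit-learn 1.9.0, scipy 1.17.1 and numpy 2.4.6. Promoter sequences are from RefSeq.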

Additional observations from a re-analysis of the deposited data

Results flagged for a closer look

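Against a log2 ratio of 5.41 for Mt1 in connective tissue-like cells, 2 classes had estimates below 0. Endothelial-like cells had -0.55 with an interval that spans 0 (-1.91 to 0.97), so no change is shown. The globin-led clusters had -1.19, but the E15.5 cluster held 17 of 48 cells with at least 5% globins, and so the clusters do not hold the same cells. These differences between classes were not tested, since each age has 1 library.

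Mt1 was also present in barcodes that were left out of the classes. Those removed as doublets held 4.35 CPM at E12.5 and 64.6 CPM at E15.5. Barcodes with at least 500 genes and at least 10% mitochondrial UMIs held 26.8 CPM at E15.5, and at E12.5 none of 66 such barcodes had an Mt1 UMI, which allows up to 37.8 CPM.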

How the results depend on the processing

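In connective tissue-like cells the log2 ratio of Mt1 lay between 5.08 and 5.79 over 17 other settings and stayed within its counting interval. That of Mt2 lay between 2.49 and 4.21, and the value of 2.49 in male cells, from 7 UMIs at E12.5, was the one to leave the interval of the reported 3.61. In muscle-like cells Mt1 (1.88) was 1.11 with a mitochondrial limit of 5%, 3.94 with classes set by markers in each cell, 2.58 when joined with the sarcomere-led cluster, 5.34 in male cells and -0.07 in female cells, where the direction turned. Mt2 in muscle-like cells (2.35) was 3.25 with classes by markers, 1.16 when thinned to 1000 UMIs, 4.83 in male cells and 1.20 in female cells. The male and female values rest on 1 cell at each age, as given above, and the mitochondrial limit leaves the E15.5 cell out. The cause of the other differences was not tested. In barcodes with at least 10% globins the log2 ratio of Mt1 (-0.99) was 0.22 per UMI other than globins, where the direction turned, -2.62 without the highest barcode of each library and -1.40 with both changes, and that of Mt2 (-2.20) was -0.99 per UMI other than globins and -3.15 without the highest barcode. In such barcodes under 500 genes Mt1 (-1.48) was -0.15 per UMI other than globins and, with the direction turned, 0.01 with both changes. In the globin-led clusters Mt1 (-1.19) was -2.07, -4.02 and -4.91 under these 3 settings in the same order, and Mt2 (-2.05) was -2.92, -3.17 and -4.06. The share of globins in the total moves these scales. Mt1 in endothelial-like cells lay between -1.75 and 0.03, within its interval under all 17 settings. No ratio of Mt2 could be given for endothelial-like cells, which had 0 UMIs at E12.5. No paired analysis was possible because each age has 1 library. A class with fewer than 20 UMIs of a gene over both ages gives no usable ratio, which limits Mt2 in tenocyte-like, Schwann-like and endothelial-like cells.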

Other observations

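Cells with at least 3 Mt1 UMIs also differed from cells without any in other genes, which are given here as values because the genes were picked as the leading ones after seeing them. Among immune-like cells at E15.5 the 53 cells with such counts had 1662 CPM of Mrc1, the mannose receptor of tissue macrophages, and the 14 cells without Mt1 had 10.0 CPM. The chemokine gene Ccl7 stood at 512 CPM in the former and 0 in the latter. The 14 cells were also low in the general macrophage gene C1qa, at 40.0 CPM against 1759.9, so the 2 sets differ in the kind of immune cell they hold, and their median depths were 13215 UMIs with Mt1 and 5928 without. Among mural-like cells the chemokine gene Ccl2 stood at 381 CPM in 32 cells with at least 3 Mt1 UMIs and at 76.0 CPM in 65 cells without. Among connective tissue-like cells Thy1, a surface glycoprotein gene of fibroblasts, stood at 98.1 and 12.2 CPM, and the signalling gene Wnt4 at 68.9 and 7.73 CPM. Thy1 was a leading gene of the cluster at 283 CPM of Mt1, and Wnt4 of the one at 311 CPM. These values thus restate in part which clusters the cells came from.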
